A study of Mus musculus with 6 samples.

Results

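The polo-like kinases Plk1, Plk2, Plk3 and Plk4 were taken by gene symbol from the table of read counts, as 4 of the 54532 mouse genes listed there, and all 4 were among the 15307 genes expressed highly enough to be tested. The family was selected on this same comparison: Plk2 was among the 9 genes called higher in the knockdown cells (edgeR, adjusted p = 0.0223), and that value is given only as the reason for the choice. The levels and fold changes of the 4 kinases are therefore described, and other adjusted p-values of Plk2 say only whether the call that selected it was kept under another processing. RNA-seq was run on MLE12 cells, a mouse lung epithelial line immortalised with the SV40 large T antigen, which binds p53, and whose labels give the strain C57BL/6J. The Ctrl_sh group (n = 3) received lentivirus carrying a control shRNA, and the SI_sh group (n = 3) received 1 lentivirus against Idh3α and 1 against Slc25a1, each virus at an MOI of 50. The virus was taken off at 16 h, and culture went on for 80 h more. Idh3a encodes the catalytic subunit of the mitochondrial NAD-dependent isocitrate dehydrogenase, and Slc25a1 encodes the mitochondrial citrate carrier. Both knockdowns were made together, so the effects of each, and of the number of viruses a culture received, cannot be told apart. The labels do not say that the 3 replicates were separate cultures, and p-values then measure only the spread between these samples.

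Polo-like kinases are serine/threonine kinases with an N-terminal kinase domain and C-terminal polo boxes that dock them onto their targets. Plk1 drives entry into mitosis, centrosome maturation, chromosome segregation and cytokinesis, and Plk4 starts the duplication of centrioles. Plk2 and Plk3 were first known as genes induced by serum and growth factors, and they are also switched on by DNA damage and other stresses. Plk5 lacks much of the kinase domain in humans and is mostly a gene of the nervous system.

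Plk2 was the member that stood apart between the groups. It had 733, 426 and 620 reads in the 3 Ctrl_sh libraries and 1418, 1414 and 1374 in the SI_sh libraries. As CPM, the read counts scaled to a common library size with edgeR's TMM factors, these were 23.7, 21.6 and 21.6 in the controls and 47.7, 46.6 and 46.3 in the knockdown cells. The groups did not overlap, as in 25.4% of all genes tested, and every knockdown library lay at about the same level. The mean CPM went from 22.3 ± 1.21 to 46.9 ± 0.697 (SD, n = 3 each), a ratio of 2.10, and the fitted log2 fold change was 1.07 (SE 0.08, 95% interval 0.89 to 1.26). In bulk samples such as these, a change in the share of cells that express a gene cannot be told apart from a change in its RNA per cell. By log2 fold change Plk2 came at place 6 of the 9 genes called higher.

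Plk3, the other member induced by stress, had the lowest level of the 4 selected members in both groups. Its CPM was 9.79, 9.97 and 12.0 in the controls and 11.7, 10.3 and 10.1 in the knockdown cells, from between 197 and 343 reads per library. The groups overlapped over most of their range. The log2 fold change was 0.02 (SE 0.13), with a 95% interval of -0.31 to 0.34.

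The sequences just upstream of these genes are shown because the count of cyclic AMP response elements, written CRE, differed between members, and such elements are common in promoters of inducible genes. The 250 bases before each RefSeq start site (GRCm38.p6) are written 5′ to 3′ on the strand of the gene, with Plk2 at chr13:110394794-110395043 (+) and Plk3 at chr4:117133964-117134213 (-). Capitals mark the palindromic CRE, TGACGTCA, in Plk2 and its core, TGACG, in Plk3.
Plk2: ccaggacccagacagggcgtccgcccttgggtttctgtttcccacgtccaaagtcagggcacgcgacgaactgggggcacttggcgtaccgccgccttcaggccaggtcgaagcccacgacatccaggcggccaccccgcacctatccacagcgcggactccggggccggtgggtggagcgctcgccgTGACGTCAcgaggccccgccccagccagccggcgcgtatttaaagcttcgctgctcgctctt
Plk3: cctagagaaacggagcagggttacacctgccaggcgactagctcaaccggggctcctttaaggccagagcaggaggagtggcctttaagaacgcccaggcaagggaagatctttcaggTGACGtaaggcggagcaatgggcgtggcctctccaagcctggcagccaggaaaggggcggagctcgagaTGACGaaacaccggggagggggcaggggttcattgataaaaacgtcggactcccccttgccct
Plk2 held 1 CRE at position -62 from the start site, and 1.79% of the 32851 RefSeq promoter windows of 300 bases (250 before to 50 after the start) held this motif on either strand. Plk3 held no full CRE but 2 copies of the core, at -132 and -63. The core was in 20.8% of all windows. In Plk2 it occurred 3 times, with 2 of these inside the full CRE and 1 at position 22 after the start. The motifs were chosen after the sequences had been seen, and a match in letters is not a bound site.

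Plk1, the kinase of mitotic entry, overlapped between the groups. Its CPM was 100, 83.5 and 96.0 in the controls and 101, 117 and 99.3 in the knockdown cells. The lowest value was that of Ctrl_sh replicate 2 and the highest that of SI_sh replicate 2, while the other 4 libraries lay close together. The means were 93.2 ± 8.69 and 106 ± 9.84, and the log2 fold change was 0.18 (SE 0.11, 95% interval -0.08 to 0.44).

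Plk4, the kinase of centriole duplication, varied least across the 6 libraries in relative terms. Its CPM was 83.1, 79.8 and 89.4 in the controls against 83.2, 87.7 and 88.9 in the knockdown cells. The control range enclosed that of the knockdown cells. The log2 fold change was 0.04 (SE 0.08, 95% interval -0.14 to 0.22). Plk5 was close to absent, with 1, 0 and 0 reads in the controls and 3, 1 and 4 in the knockdown cells, and was not tested.

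The upstream sequences of the mitotic members are given for contrast with those of Plk2 and Plk3. Plk1 lies at chr7:122159185-122159434 (+) and Plk4 at chr3:40799701-40799950 (+), for the same 250 bases. Capitals mark a CCAAT box in Plk1 and, in Plk4, the core of a CRE read on the minus strand.
Plk1: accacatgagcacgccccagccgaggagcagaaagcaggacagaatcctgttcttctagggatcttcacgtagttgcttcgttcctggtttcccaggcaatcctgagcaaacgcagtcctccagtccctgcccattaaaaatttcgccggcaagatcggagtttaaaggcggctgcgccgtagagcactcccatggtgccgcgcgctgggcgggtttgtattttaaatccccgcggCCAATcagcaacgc
Plk4: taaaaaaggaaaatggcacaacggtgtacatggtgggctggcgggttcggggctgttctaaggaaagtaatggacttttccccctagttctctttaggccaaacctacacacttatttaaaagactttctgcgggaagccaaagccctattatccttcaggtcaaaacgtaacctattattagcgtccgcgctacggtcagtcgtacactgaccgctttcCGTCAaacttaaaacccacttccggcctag
The CCAAT box of Plk1 lay at position -14, and 37.4% of all windows held this pentamer. Plk1 also held TTTGAA, the cell cycle homology element of many mitotic genes, at position 31 after the start, as did 17.9% of windows. No TGACG was found in the window of Plk1, and Plk4 held 1 at -30. GGGCGG, the GC box, occurred 2 times in Plk2, 1 time each in Plk1 and Plk3 and not in Plk4, against 35.7% of all windows with at least 1 copy. The E box CACGTG was not found in any of the 4 windows on either strand. The same held for TTTNNCGC, an E2F type site. The TATA box TATAAA, the p53 half-site and the CArG box were also not found. The NF-κB consensus was found in Plk4 only, at position 7 after the start, and in 4.51% of all windows. The G and C share of the 250 bases was 68.4% in Plk2, 60.0% in Plk3, 56.4% in Plk1 and 47.2% in Plk4, and over the same 250 bases the middle 50% of all promoters ran from 45.2% to 61.2%.

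**Figure D1:**
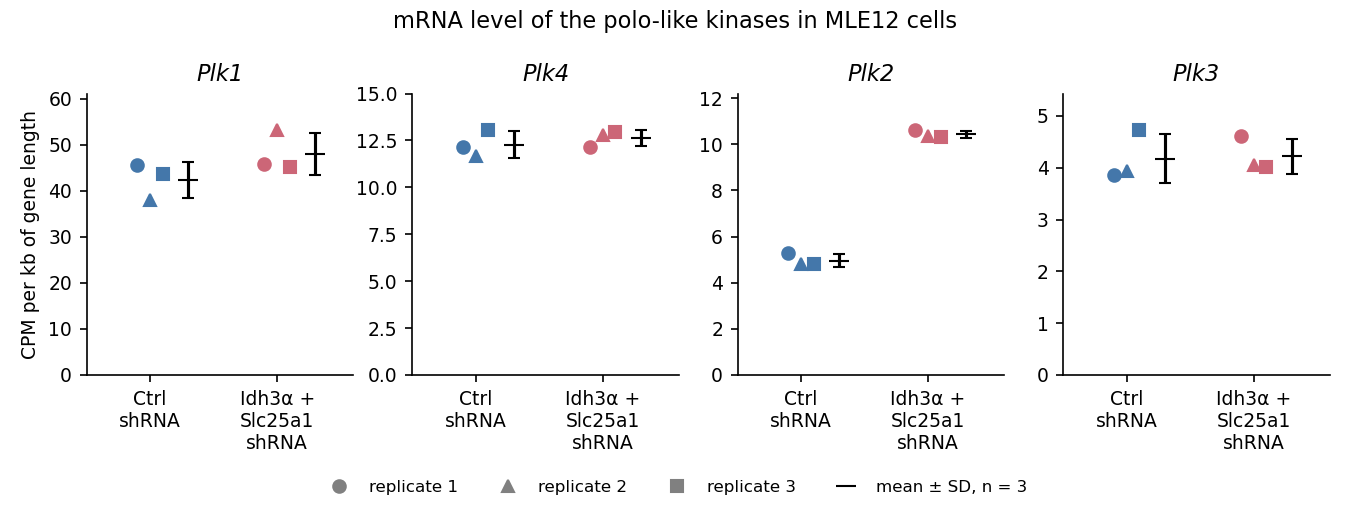
mRNA level of each kinase as CPM per kilobase of gene length (vertical axes, from 0, with a scale of its own per gene) in each Ctrl shRNA and Idh3α + Slc25a1 shRNA library, with the mean ± SD (n = 3). Plk2 lies between 4.80 and 5.27 in the controls and between 10.3 and 10.6 in the knockdown cells, while the groups overlap for Plk1, Plk3 and Plk4.

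Levels can be compared between genes only per length. As CPM per kilobase of the deposited gene length, the order of mean levels was Plk1, Plk4, Plk2 and Plk3 in both groups. In the controls the levels were 42.4 ± 3.95 for Plk1, 12.3 ± 0.711 for Plk4, 4.96 ± 0.269 for Plk2 and 4.18 ± 0.475 for Plk3. The control ranges of Plk2 (4.80 to 5.27) and Plk3 (3.87 to 4.72) were adjacent, and the ratio of Plk2 to Plk3 within a library ran from 1.02 to 1.36. In the knockdown cells the levels were 48.0 ± 4.47, 12.6 ± 0.443, 10.4 ± 0.155 and 4.22 ± 0.334 in the same order. Plk2 then lay at 2.30 to 2.57 times Plk3 and 0.795 to 0.875 times Plk4. The deposited length joins the exons of all transcripts of a gene. With the length of the longest coding transcript (GENCODE M21) instead, the order was kept, and the control and knockdown levels were 7.96 ± 0.431 and 16.7 ± 0.249 for Plk2, 4.45 ± 0.506 and 4.49 ± 0.355 for Plk3, and 24.2 ± 1.40 and 24.9 ± 0.872 for Plk4. The closeness of Plk2 and Plk3 in the controls was lost with that length, where the ratio ran from 1.54 to 2.05 in the controls and from 3.47 to 3.88 in the knockdown cells. Plk2 was then at 0.300 to 0.354 times Plk4 in the controls and 0.647 to 0.712 times in the knockdown cells.

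As a share of the summed per-kilobase level of the 4 kinases, Plk2 made up 7.80% ± 0.488 in the controls and 13.9% ± 0.861 in the knockdown cells. Plk1 made up 66.4% ± 1.61 and 63.7% ± 2.13, Plk4 19.3% ± 0.980 and 16.8% ± 1.01, and Plk3 6.56% ± 0.694 and 5.63% ± 0.638. With the length of the longest coding transcript the control shares were 53.6% for Plk1, 30.7% for Plk4, 10.1% for Plk2 and 5.63% for Plk3, and the knockdown shares 50.9%, 26.5%, 17.8% and 4.79%. These shares sum to 100% in each library, so a larger share of 1 member lowers the others.

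A ratio within a library does not depend on how libraries are scaled. The log2 ratio of Plk2 plus Plk3 to Plk1 plus Plk4, per kilobase, was -2.66, -2.50 and -2.57 in the controls and -1.93, -2.19 and -2.02 in the knockdown cells. The score holds Plk2, the gene that selected the family on this same comparison, so its difference is only described. All 3 knockdown libraries lay above all 3 controls, and the means differed by 0.53, or by 0.57 without Ctrl_sh replicate 2. The members did not share in this equally. The log2 ratio of Plk2 to Plk3 went from 0.45, 0.29 and 0.03 to 1.20, 1.36 and 1.36, a difference of means of 1.05. The difference was 1.03 for Plk2 to Plk4 and 0.89 for Plk2 to Plk1, with no overlap of the groups in either ratio. The ratios without Plk2 overlapped between groups, with differences of -0.16 for Plk3 to Plk1, -0.14 for Plk4 to Plk1 and -0.02 for Plk3 to Plk4. Of the stress-responsive members, Plk2 separated the groups in its ratios to both mitotic members and Plk3 in neither.

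**Figure D2:**
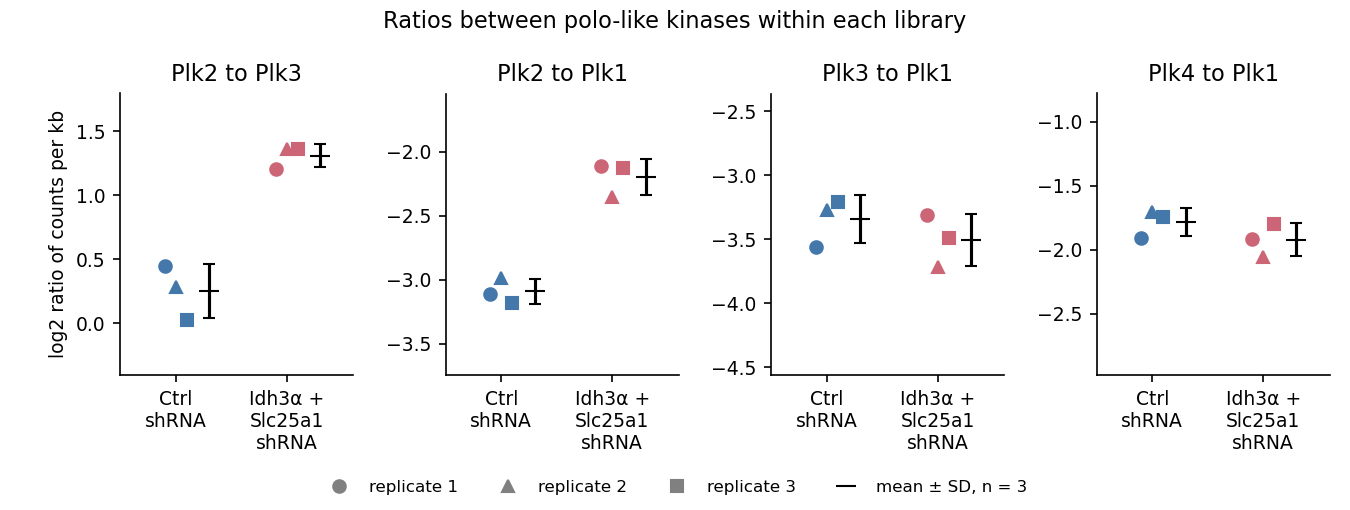
Log2 ratios of per-kilobase levels within each library (vertical axes, the same span of log2 units in each panel) by group, with the mean ± SD (n = 3). The ratios that hold Plk2 separate the groups, with Plk2 to Plk3 at 0.03 to 0.45 in the controls and 1.20 to 1.36 in the knockdown cells, and those of Plk3 and Plk4 to Plk1 do not.

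The libraries held between 27273502 and 28535653 counted reads, but Ctrl_sh replicate 2 stood apart. It had 16681 genes with a read, where the others had 19902 to 23147, the 100 most abundant genes took 27.2% of its reads against 12.6% to 12.9%, mitochondrial genes took 6.49% against 1.57% to 1.80%, and its TMM factor was 0.711 against 1.05 to 1.09. Idh3a was at 79.8, 137 and 93.0 CPM in the controls and 58.5, 57.9 and 55.5 in the knockdown cells, and Slc25a1 at 103, 98.7 and 108 against 68.9, 69.6 and 63.0. Neither target overlapped between groups, and by edgeR's quasi-likelihood test the adjusted p-values were 0.254 and 0.104 with all 6 libraries and 0.0142 and 0.00649 without Ctrl_sh replicate 2 (log2 fold changes -0.85 and -0.62, or -0.60 and -0.66). Of the epithelial markers, Nkx2-1 was at 343, 324 and 341 CPM in the controls and 302, 299 and 277 in the knockdown cells, and the alveolar type 2 lipid transporter Abca3 was at 110 to 141 over both groups, whereas the alveolar type 2 product Sftpd had no read and Sftpa1 at most 2 reads in any library. Sftpc, the surfactant protein that defines these cells, was at 44.1, 97.3 and 50.9 CPM in the controls and 35.9, 28.5 and 27.2 in the knockdown cells (log2 fold change -1.07, edgeR adjusted p = 0.315, or 0.0438 without Ctrl_sh replicate 2), and its part in the results for the kinases was not tested. Napsa, another alveolar type 2 marker, had the other sign at a low level, with 0.68, 0.76 and 0.45 CPM against 1.38, 1.25 and 1.18. The groups also did not overlap for Nkx2-1 and Epcam, with lower knockdown values (Epcam 3.24 to 4.01 against 2.39 to 3.20 CPM), nor for Cdh1, with higher ones (68.4 to 74.9 against 75.7 to 83.8). Of all genes tested, 25.4% had groups that did not overlap. Over both groups Krt8 was at 232 to 300 CPM, while Krt18, Lamp3 and Sftpb were low, at 0 to 0.53, 0.10 to 0.37 and 0.66 to 2.49 CPM. Of the 12 epithelial markers 8 were tested, edgeR called 0 with all 6 libraries and 1, Sftpc, without Ctrl_sh replicate 2, and their summed level was 838 to 899 CPM in the controls and 786 to 839 in the knockdown cells. The summed level of 9 leukocyte, endothelial and fibroblast markers was 22.5 to 26.1 CPM in the controls and 21.0 to 27.8 in the knockdown cells, with Ptprc and Adgre1 at 0 in every library. Col1a1 made up most of that sum, at 16.5 to 22.8 CPM, and Pdgfra was at 2.68, 2.23 and 2.23 CPM against 3.43, 3.72 and 3.91, with no overlap and no call by edgeR with either set of libraries. The summed level of the cycling markers Top2a, Mki67 and Pcna was 2329 to 2845 CPM in the controls and 2039 to 2325 in the knockdown cells, a narrow gap with no overlap. The highest sum was that of Ctrl_sh replicate 2, where Pcna was at 1094 CPM against 395 and 402 in the other controls and 337 to 370 in the knockdown cells. Top2a and Mki67 overlapped between groups, and the edgeR adjusted p-values of Top2a, Mki67 and Pcna were 0.967, 0.446 and 0.374 with all 6 libraries and 0.733, 0.205 and 0.173 without that library. The part of these markers in the values of Plk1 and Plk4 was not tested.

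Leaving out Ctrl_sh replicate 2 left Plk2 near its value and moved the other kinases toward or past 0. Relative to the mean of the other controls, its log2 CPM was lower by 0.07 for Plk2, 0.11 for Plk4, 0.12 for Plk3 and 0.23 for Plk1. Over all genes tested, the middle 50% of such deviations ran from -0.29 to 0.50. Without that library the log2 fold change was 1.04 (SE 0.08, 95% interval 0.85 to 1.22) for Plk2, 0.10 (SE 0.09, -0.10 to 0.29) for Plk1, -0.03 (SE 0.13, -0.33 to 0.26) for Plk3 and -0.00 (SE 0.07, -0.16 to 0.16) for Plk4. Plk3 and Plk4 were thus positive with all 6 libraries and at or just below 0 with 5, and Plk1 went from 0.18 to 0.10. The ratio of mean CPM of Plk2 was 2.07 without it. Without any 1 of the other 5 libraries the log2 fold change of Plk2 was 1.04 to 1.12, and it no longer passed the threshold by which it was selected (edgeR adjusted p from 0.0709 to 0.258). The background against which Plk2 was called depended on this library far more: 0.0588% of the 15307 genes tested were called higher and 0.00653% lower with all 6 libraries, and 1.11% and 0.675% of 15709 without it. Groups that do not overlap in CPM, as for Plk2, occurred in 25.4% of all genes tested.

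**Figure D3:**
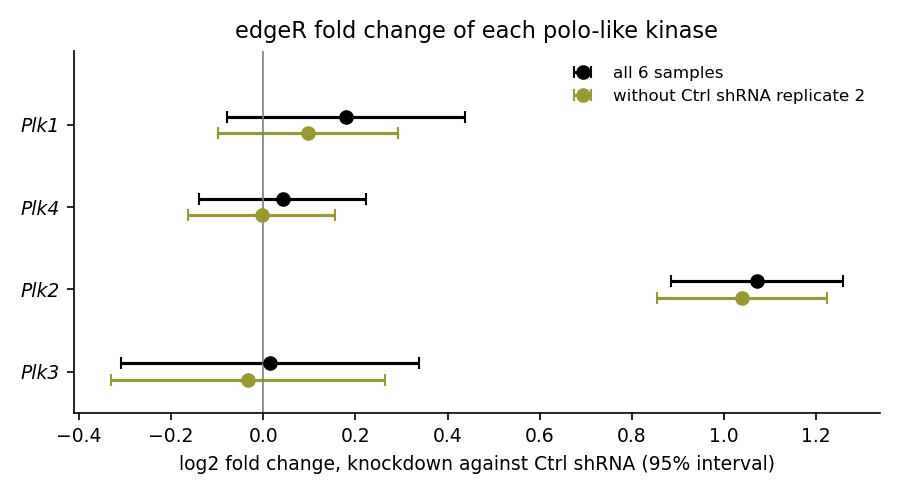
Log2 fold change (SI_sh over Ctrl_sh) of the 4 kinases with the 95% interval of the edgeR fit, with all 6 libraries and without Ctrl_sh replicate 2; the line at 0 marks no difference. The intervals of Plk2, the member that selected the family, run from 0.89 to 1.26 and from 0.85 to 1.22, and those of Plk3 from -0.31 to 0.34 and from -0.33 to 0.26.

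The genes around the kinases were read from 6 lists of 113 genes in all, of which 111 were tested. With all 6 libraries 0 of them passed the adjusted threshold of edgeR, 7 were higher and 10 lower at an unadjusted p under 0.05 (against 7.47% and 6.65% of all genes), and DESeq2 called 2 higher and 3 lower (against 1.55% and 0.958% of all genes it tested). Without Ctrl_sh replicate 2 edgeR called 2 higher and 4 lower (against 1.11% and 0.675% of all genes). The median log2 fold change of the 111 genes was 0.01, beside -0.01 over all genes tested, with 56 positive and 55 negative.

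Among 18 genes of mitotic entry, activators of Plk1 and Cdk1 and some that hold them back, such as Wee1 and Pkmyt1, edgeR called 0 with all 6 libraries or without Ctrl_sh replicate 2 and DESeq2 called 0. At an unadjusted p under 0.05, 2 were higher and 1 lower (against 7.47% and 6.65% of all genes). The list median log2 fold change was 0.03, and single genes ran from -1.85 to 0.36. The lowest was at -0.57 without Ctrl_sh replicate 2. Aurora A (Aurka) and its cofactor Bora, which activate Plk1, had log2 fold changes of 0.07 (SE 0.08) and 0.15 (SE 0.07), and the transcription factor Foxm1 had 0.18. Without Ctrl_sh replicate 2 these were 0.12, 0.14 and 0.08, and the list median was 0.07. Cdk1, the kinase that starts mitosis, was at 202, 677 and 265 CPM in the controls and 208, 199 and 201 in the knockdown cells. Its high value lay in Ctrl_sh replicate 2 alone, as did that of Ccnb1, its cyclin partner, and Plk1 was not high there. The log2 fold change of Cdk1 was -0.91 with that library and -0.21 without it, and that of Ccnb1 turned from -0.40 to 0.06. Of 27 genes of the kinetochore and cytokinesis, where Plk1 acts later, edgeR called 0 under either set of libraries and DESeq2 called 0. At an unadjusted p under 0.05, 1 was higher and 1 lower (against 7.47% and 6.65% of all genes). The list median was -0.01, and single genes ran from -1.25 to 0.23. The lowest was at -0.30 without Ctrl_sh replicate 2. The checkpoint kinase Bub1 had a log2 fold change of -0.15, and the activators of the anaphase-promoting complex Cdc20 and Fzr1 had 0.02 and 0.23. Without Ctrl_sh replicate 2 these became -0.02, -0.01 and 0.08.

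The 21 genes of centriole duplication, the pathway of Plk4, had a median log2 fold change of 0.07, and 0 were called by edgeR, with or without Ctrl_sh replicate 2, by DESeq2, or at an unadjusted p under 0.05. Single genes ran from -1.55 to 0.26, and the lowest was at -0.40 without Ctrl_sh replicate 2. Stil and Sass6, which build the new centriole with Plk4, were at 0.08 and 0.05. Cep152 and Cep192, the scaffolds that bring Plk4 to the centriole, were at 0.13 and 0.17. Without Ctrl_sh replicate 2 Stil and Sass6 turned negative, at -0.04 and -0.11, Cep152 and Cep192 were at 0.03 and 0.05, and the list median was 0.03.

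Of 16 genes of p53 and the checkpoint, a pathway that can induce Plk2 and Plk3, edgeR called 0 with all 6 libraries. At an unadjusted p under 0.05, 1 was higher and 3 lower (against 7.47% and 6.65% of all genes). DESeq2 called 1 higher (against 1.55% of all genes), and without Ctrl_sh replicate 2 edgeR called 1 higher and 1 lower (against 1.11% and 0.675%). The higher gene was Trp53 itself, at 142, 131 and 155 CPM in the controls and 207, 239 and 190 in the knockdown cells. Its groups did not overlap, as in 25.4% of all genes tested. Its log2 fold change was 0.57 (SE 0.12, edgeR adjusted p = 0.211), with an adjusted p of 0.0497 without that library and 0.0159 by DESeq2, and between 0.0142 and 0.675 over the 14 alternatives. Among p53 targets, the log2 fold change was 0.12 (SE 0.17) for Cdkn1a and 0.16 (SE 0.10) for Mdm2, or -0.02 and 0.07 without that library, and neither was called by edgeR with either set of libraries. Btg2 was the lower gene, at -0.34 (SE 0.09, edgeR adjusted p = 0.296, or 0.0313 without that library, and 0.00520 to 0.781 over the alternatives).

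Of 18 immediate early genes, the serum-induced group with which Plk2 and Plk3 are usually listed, 17 were tested. With all 6 libraries edgeR called 0, and at an unadjusted p under 0.05, 3 were higher and 4 lower (against 7.47% and 6.65% of all genes). DESeq2 called 1 higher and 3 lower (against 1.55% and 0.958% of all genes), and without Ctrl_sh replicate 2 edgeR also called 1 higher and 3 lower (against 1.11% and 0.675%). Egr1, a transcription factor of this group, was at 193, 164 and 166 CPM in the controls and 61.0, 85.9 and 58.6 in the knockdown cells. Fos, a subunit of AP-1, was at 23.3, 32.7 and 22.6 against 10.9, 12.0 and 9.34, and Ier2 at 106, 86.9 and 111 against 57.5, 61.2 and 57.3. All 3 had lower knockdown values, and their groups did not overlap, as in 25.4% of all genes tested. They were opposite in sign to Plk2, with log2 fold changes of -1.35, -1.29 and -0.79. Their edgeR adjusted p-values were 0.104, 0.135 and 0.112 with all 6 libraries and 0.00663, 0.00649 and 0.000913 without Ctrl_sh replicate 2. Over the alternatives they ran up to 0.637 for Egr1 and 0.645 for Fos and Ier2, and down to 7.16e-08, 2.87e-06 and 5.95e-05 by DESeq2. Myc had the sign of Plk2, at 66.4, 62.4 and 65.8 CPM against 99.7, 117 and 93.5, with a log2 fold change of 0.67 (edgeR adjusted p = 0.144, or 0.0211 without that library, and 0.000383 to 0.637 over the alternatives). The list median was -0.00. Of 13 partners and substrates of Plk2 and Plk3, 12 were tested, edgeR called 0 under either set of libraries and DESeq2 called 0. At an unadjusted p under 0.05, 0 were higher and 1 lower (against 7.47% and 6.65% of all genes). The median of these partners was -0.16 with all 6 libraries and -0.01 without Ctrl_sh replicate 2.

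**Figure D4:**
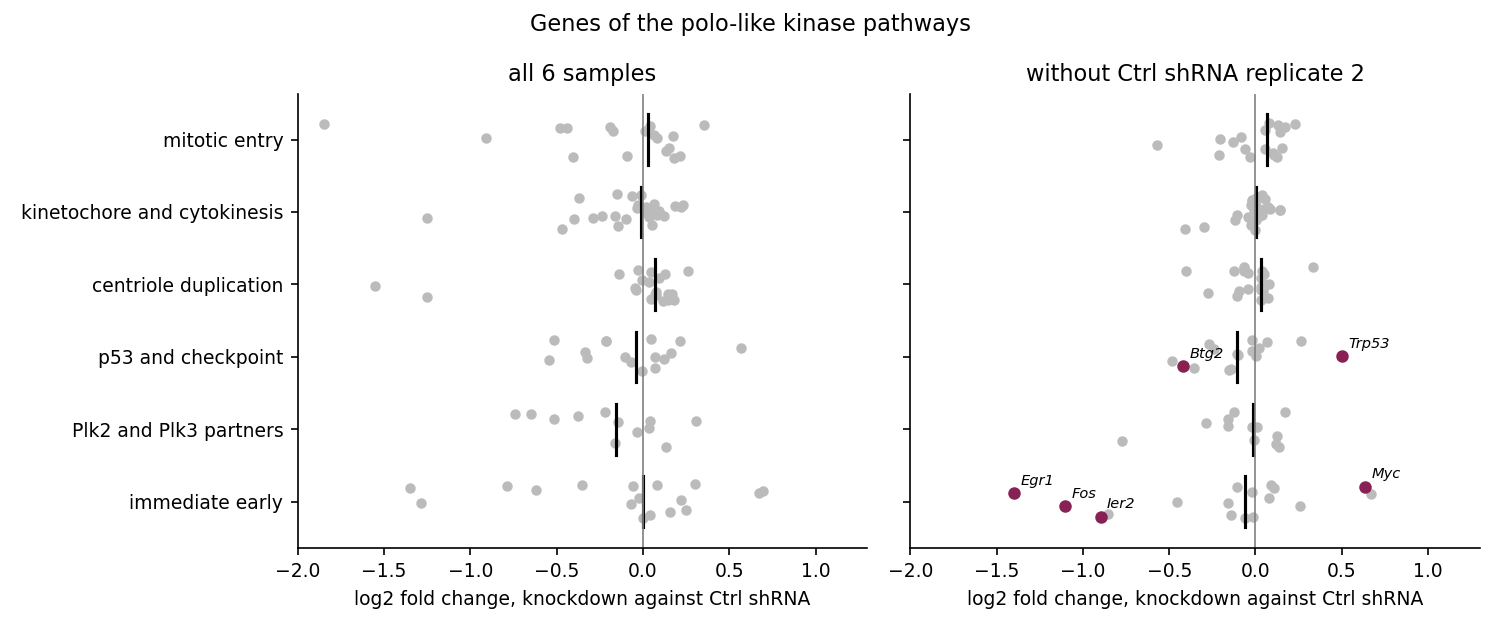
Log2 fold change (SI_sh over Ctrl_sh) of each tested gene of the 6 lists, with all 6 libraries and without Ctrl_sh replicate 2; black bars are list medians and coloured points have an edgeR adjusted p under 0.05. Coloured points appear only without that library, 2 above 0 and 4 below, and with all 6 libraries the medians lie between -0.16 and 0.07.

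Across the 6 libraries, the genes whose log2 CPM followed Plk2 most closely among 10688 genes with a mean CPM of at least 5 were Tnfaip3 (Pearson r = 0.999), Thbs1 (0.999) and Csf1 (0.998). Tnfaip3 encodes the NF-κB inhibitor A20, Thbs1 the matrix protein thrombospondin and Csf1 a macrophage growth factor. They went from 18.6 to 67.9, from 60.9 to 133 and from 144 to 323 mean CPM, with Spearman's rho of 0.771 for each. They too were among the 9 genes called higher with all 6 libraries. Plk1 was followed by Zfpm1, Cdc25b and Atp1b1 (r = 0.993, 0.993 and 0.992), of which Cdc25b encodes a phosphatase that activates Cdk1. Plk3 was followed by Pusl1, Itpkc and Creld2 (0.984, 0.978 and 0.976), and Plk4 by Mlh3, Usp30 and Setd4 (0.987, 0.977 and 0.976). None of the 12 genes was listed for more than 1 member. The points are the same 6 libraries in 2 groups and share depth, and these correlations are descriptions.

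In the annotation (GRCm38), Plk2 is at chr13:110395046-110400844 (+, ENSMUSG00000021701), with 14 exons in its longest coding transcript, and Plk3 at chr4:117128655-117133963 (-, ENSMUSG00000028680), with 15. Plk1 is at chr7:122159439-122169873 (+, ENSMUSG00000030867), with 10 exons, and Plk4 at chr3:40800019-40816883 (+, ENSMUSG00000025758), with 16. No other annotated gene overlapped Plk2 or Plk4. Gm44985, on the other strand, shared 1016 bases with Plk1 and had 84 reads in all libraries beside 16986 for Plk1, and Tctex1d4, also on the other strand, shared 84 bases with Plk3 and had 23 reads beside 1802. Whether reads were counted by strand is not stated. A processed pseudogene named Plk-ps1, chosen after its values were seen, had 12, 26 and 27 reads in the controls and 45, 30 and 42 in the knockdown cells. As CPM its groups overlapped, at 0.388, 1.32 and 0.941 against 1.51, 0.989 and 1.42 (edgeR adjusted p = 0.546). Reads could be shared between it and the gene it copies.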

How the data were processed

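RNA was sequenced from 3 Ctrl_sh and 3 SI_sh samples, grouped by their titles. The authors deposited integer read counts per gene in 1 table and FPKM values in another. Per the labels (the submitters' processing notes), the tools included HISAT2 2.0.5, StringTie 1.3.3b and featureCounts 1.5.0-p3 on mm10, and use of strand is not given in the sources used here. The deposited counts were fitted with edgeR 4.0.16 (R 4.3.3): filterByExpr, TMM scaling, quasi-likelihood F-test and Benjamini-Hochberg adjustment over all 15307 genes tested, at a threshold of 0.05. The SE was the log2 fold change over the square root of F. The code was tested on simulated data. The alternatives were DESeq2 1.42.0, limma 3.58.1 on log2(FPKM + 1) and log2(FPKM + 0.1) of genes with FPKM of at least 1 in 3 samples, voom with sample quality weights, other scalings, no filter, each library left out, and a replicate block. The labels do not say that replicate numbers pair the samples, and the main fit did not pair them. The number of columns of unused per-sample values was 0. Total counts limit precision for Plk3, whose counting error was 5.37% to 7.12% per library (2.66% to 4.85% for Plk2), and such errors cover counting only.

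The members and lists were chosen with earlier results of these data known. Genes named were the members and Plk5, the 2 targets, 16 fixed pathway genes, up to 3 higher and 3 lower genes per list past the threshold with all 6 libraries or without Ctrl_sh replicate 2, genes overlapping a member, the 3 genes most correlated with each member, and markers on which the cell type check turns. Outside the rule, Plk-ps1 was named after its values were seen, and Wee1 and Pkmyt1 only as examples of a list's content, with no values. Protein sequences were not analysed here.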

Additional observations from a re-analysis of the deposited data

How the results depend on the processing

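In the 14 alternatives the log2 fold change of Plk2 was positive throughout, from 0.94 to 1.24 (adjusted p from 1.47e-19 to 0.455), and past the threshold in 7: median-of-ratios scaling, no filter, without Ctrl_sh replicate 2, DESeq2, both FPKM fits and quality weights. It missed the threshold with scaling by library size only (adjusted p = 0.455), with any 1 of the other 5 libraries left out (edgeR adjusted p from 0.0709 to 0.258, log2 fold change 1.04 to 1.12) and with the replicate block. In those 7 fits edgeR called at most 1 gene in all, and the cause was not tested. The 2 values of Plk2 that moved by more than the replicate SD were 1.24 with library size only and 0.94 on log2(FPKM + 1). Scaling by library size only gave 0.33 for Plk1, 0.18 for Plk3 and 0.21 for Plk4, and moved the median of all genes from -0.01 to 0.16. Voom with sample quality weights gave -0.0387 for the log2 fold change of Plk4. Over the alternatives Plk1 was positive in 14 of 14, Plk4 in 12 and Plk3 in 10.

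The labels do not say that samples were paired. Correlations of deviations of same-numbered libraries were -0.155, -0.0920 and 0.0430. With n = 3 per group and Ctrl_sh replicate 2 standing apart, these cannot show whether the replicate number paired the samples. With the number as a block, Plk2 was at 1.08 (edgeR adjusted p = 0.412), 0 genes were called in all (694 higher and 458 lower at an unadjusted p under 0.05), and 0 pathway genes were called.

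Pathway genes called higher numbered 2 without Ctrl_sh replicate 2, 2 by DESeq2 and 8 with quality weights, and genes called lower 1 with no filter, 4 without that library, 3 by DESeq2 and 10 with quality weights. With 1 library left out at a time the counts ran from 0 to 2 higher and from 0 to 4 lower, and the difference of the ratio from 0.47 to 0.60. With the mean of the log2 levels in place of the sums the difference was 0.43. The ratio differed by 0.64 with lengths of the longest coding transcript, an alternative chosen after seeing the data, as were the shares and the ratios of Plk2 to Plk3 and to Plk4 with that length. Of all genes, 9 were called higher and 1 lower with all 6 libraries, 1 and 0 with library size only, 12 and 3 with no filter, 7 and 3 in both FPKM fits, 218 and 135 by DESeq2, 175 and 106 without Ctrl_sh replicate 2, and 1327 and 971 with quality weights. Leaving out Ctrl_sh replicate 1 gave 1 and 0, and leaving out Ctrl_sh replicate 3 or any knockdown library gave 0 and 0. Depth limits Plk3 and Plk5 most.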
